A study of Rattus norvegicus with 12 samples.

Results

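Cardiopulmonary bypass (CPB), in which a heart-lung machine takes over the circulation during cardiac surgery, was compared with sham surgery in rat kidney by RNA sequencing. The comparison held 8 of the 12 libraries of the series, 4 labelled sham and 4 labelled CPB, chosen by their treatment label, and covered 14664 tested genes of 30208 in the deposited count table. The groups are labelled sham and CPB, and the CPB group is the one without nitrite. The other 4 libraries, labelled CPB+Nitrite, were in the same fit but not in the comparison. They shared in the estimate of the spread between replicates, in the filter on genes and in the scaling. The labels give tissue and treatment for all of them, and no strain, sex or age, and neither the length of bypass nor the time of sampling. Nothing in the labels says that replicates are separate animals, so each p-value measures only the spread between these samples.

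Most oxygen in the kidney is used by the proximal tubule, which reabsorbs salt, glucose, amino acids and phosphate and burns fatty acids in mitochondria and peroxisomes to pay for it. Kidney injury after bypass is studied as a mix of low flow, haemolysis and inflammation. Interferons, NF-kappaB, heat-shock factor 1 and the amino acid response through ATF4 each switch on a known set of genes, while hepatocyte nuclear factors keep up the transport and metabolic genes of the mature tubule.

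Libraries held 19.2 to 25.4 M reads in sham and 16.8 to 25.8 M in CPB (M, mega). Levels are given in counts per mega reads (CPM) after scaling by the trimmed mean of M-values (TMM). The median correlation of log2 levels was 0.966 to 0.977 among sham libraries, 0.973 to 0.98 among CPB libraries and 0.884 to 0.929 between the groups. Kidney markers were high in all 8 libraries: the summed level of 15 proximal tubule markers was 13619 to 15642 CPM in sham and 9358 to 9933 in CPB. Sham 1 and sham 3 stood apart in part of their genes. Sham 1 had higher levels of urothelial, smooth muscle and fat markers than the other sham libraries, with sums of 199.9 CPM against 2.51 to 56.1 for urothelial markers and 754 against 128 to 214 for smooth muscle markers. Sham 3 was the highest sham library in 69.8% of the 477 genes that rose over 4-fold, against 32% of all genes tested. It was the lowest in 53.1% of the 507 genes that fell over 4-fold, against 21.5% of all. Of the sham libraries it had the highest median correlation with the CPB group, 0.929. Results that rest on either library are given with their value without it.

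Bypass was followed by a change in 6332 genes, 43.2% of those tested, in the quasi-likelihood test of edgeR (Benjamini-Hochberg adjusted p under 0.05), the source of every adjusted p given here. Of these, 3184 were higher in CPB (21.7% of genes tested) and 3148 lower (21.5%). A change of over 2-fold was called higher in 1490 genes (10.2%) and lower in 1694 (11.6%). The count past 4-fold was nearly even, 477 higher and 507 lower, but the largest changes were mostly rises: 87 genes rose and 40 fell over 16-fold, and 15 rose and 1 fell over 64-fold. In 3441 genes (23.5%) all 4 CPB libraries lay above all 4 sham libraries, and in 3632 (24.8%) all lay below. Of the calls, 587 had overlapping groups. The median log2 change was -0.05 over all genes, 0.95 in the genes called higher and -1.07 in those called lower.

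The even split depended on how libraries were scaled. With total counts in place of TMM, the median of all genes moved from -0.05 to -0.24 and 34.8% of the calls were higher, in place of 50.3%. The genes called higher took 16 to 18.5% of the reads of a sham library and 30.1 to 37.7% of those of a CPB library. The genes called lower went from 18.7 to 20.4% of the reads to 8.34 to 10.6%. Genes that rose over 8-fold made up 0.133 to 0.305% of reads in sham and 1.99 to 5.98% in CPB. Fewer genes reached 1 CPM in CPB (12782 to 12954) than in sham (13149 to 13365). In bulk tissue, fewer cells of a type and less RNA per cell cannot be told apart.

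**Figure D1:**
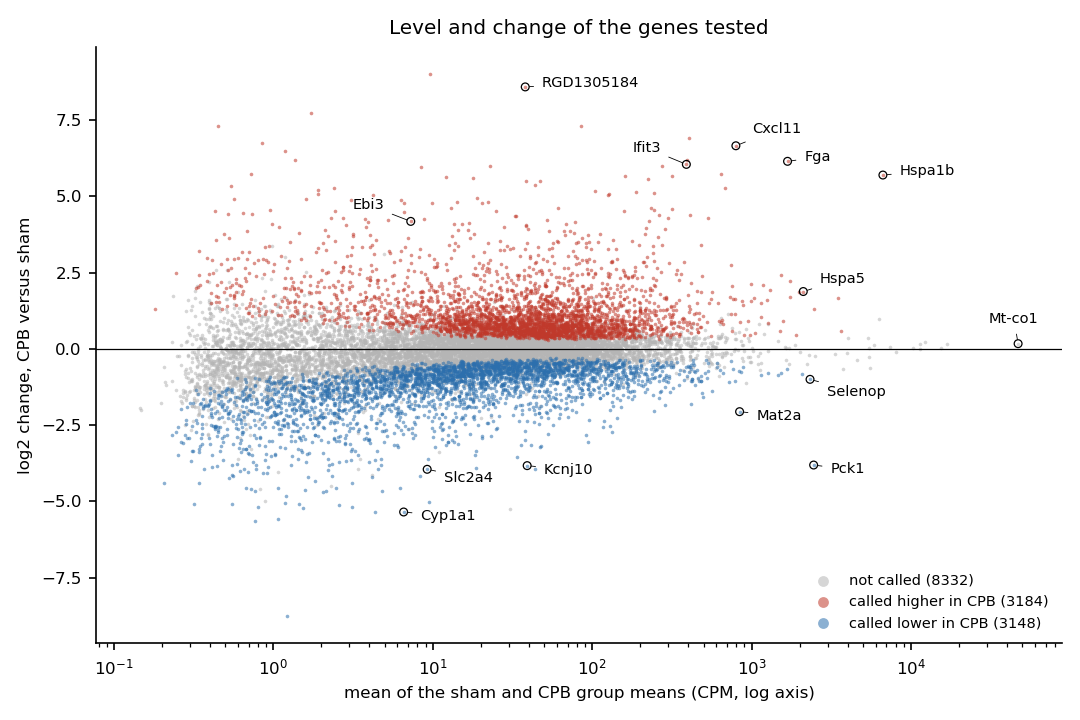
Each point is 1 of the 14664 genes tested, with the mean of the group means in CPM on a log axis and the log2 change of CPB against sham on the vertical axis. Red and blue points are the 3184 genes called higher and the 3148 called lower, and the circled genes include RGD1305184 (log2 change 8.59) and Pck1 (-3.81), which differ in level.

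The genes with the largest rises included a group of neighbours beside an interferon-inducible GTPase gene, fibrinogen chains and chemokines. On chromosome 18 of build mRatBN7.2, 5 neighbouring tested genes between 52644461 and 53892024 were all called higher. RGD1305184 (ENSRNOG00000038957, chromosome 18, 53851449 to 53852696), described in the file only as similar to a cDNA sequence, was at 0, 0.0402, 0.164 and 0.628 CPM in sham 1 to 4 and at 42.1, 70.1, 76.5 and 114.5 in CPB 1 to 4. It was nearly silent in every sham library and expressed in every CPB library, with a log2 change of 8.59 (SE 1.55, adjusted p = 0.00191; 10.05 without sham 4). Its neighbour MGC105567, which carries the same description, rose from 0.700 ± 0.454 to 45.1 ± 17.6 CPM (SD, n = 4) and LOC100910979, annotated as interferon-inducible GTPase 1-like, from 1.67 ± 0.419 to 74.8 ± 20.1. The pseudogene ENSRNOG00000067738 between them had 3 reads in the sham group, all of them in sham 4, and 1367 in CPB. The ratio of the levels was 577, with an exact 95% interval of 197 to 2800 that covers counting error only. Its fitted log2 change was 9.01, and 11.74 without sham 4, where no sham library has a read and the value depends on the prior count. If these genes are close copies, reads may be shared among them.

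The 3 chains of fibrinogen, the clotting protein that the liver makes in the acute-phase response, rose together. Fga was at 19.5, 15.2, 104 and 47.8 CPM in sham 1 to 4 and at 2252, 2169, 4850 and 3988 in CPB 1 to 4. Every CPB library was far above the highest sham library, which was sham 3, and the log2 change was 6.15 (SE 1.24, adjusted p = 0.00303; 6.92 without sham 3). Fgb rose by 6.93 on the log2 scale (7.66 without sham 3) and Fgg by 7.31 (6.71 without CPB 3). Fga, Fgb and Fgg are also on the list of hepatocyte markers, of which 5 of 9 tested members rose (0 fell, median 1.21). The other 2 that rose were Tf, transferrin, from 125.5 ± 22.3 to 267.3 ± 119 CPM, and Serpina1, from 0.185 ± 0.142 to 1.41 ± 0.645. Apoa1, Apob, Hpx and Cps1 were tested and not called, with group means of 0.305 to 0.814 CPM. The 4 members too low to be tested were at or near 0: Alb reached at most 1.25 CPM in any of the 8 libraries, Ttr 0.521, Ahsg 0.112 and Apoa2 0.079.

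Chemokines that draw T cells and neutrophils were among the strongest rises. Cxcl10 was at 6.29, 10.3, 53.2 and 23.8 CPM in sham 1 to 4 and at 533, 1225, 1516 and 1775 in CPB 1 to 4. No CPB library came near the sham range, and the log2 change was 5.75 (SE 1.05, adjusted p = 0.002; 6.55 without sham 3). Of 12 tested Cxcl genes 9 rose and 1 fell. Cxcl9 rose from 2.002 ± 0.785 to 92.1 ± 38.9 CPM and Cxcl11, another ligand of the same chemokine receptor on T cells, from 15.6 ± 10.9 to 1578 ± 796. Cxcl2, a neutrophil attractant, rose from 0.265 ± 0.357 to 16.7 ± 7.25 CPM (log2 5.97; 7.53 without sham 3). The cytokine Il6 rose from 0.481 ± 0.726 to 23.8 ± 8.66 CPM, with a log2 change of 5.62 (7.65 without sham 3).

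Promoters of 6 genes are printed here because they hold, as letters, motifs that were more frequent among the strongest rises than among all genes, or motifs that were not. They run from 250 bases before to 50 bases after the RefSeq start of the gene in build GRCr8, which is not the build of the files, and are written 5′ to 3′ on the strand of the gene. Capitals mark every match, on either strand, to 11 motifs. Those found here are the interferon-stimulated response element GAAANNGAAA (ISRE), the NF-kappaB site, the AP-1 site TGANTCA, the cyclic AMP response element TGACGTCA (CRE), the antioxidant response element TGACNNNGC, the heat-shock element GAANNTTCNNGAA, the HNF4 site CAAAGTCCA and the TATA box TATAAA. Cxcl10, Cxcl11, Ifit3 and Il6 rose over 16-fold, Hsph1 is a heat-shock chaperone chosen after its values were seen, and Mfsd4a is a transporter-like gene that fell.
Ifit3: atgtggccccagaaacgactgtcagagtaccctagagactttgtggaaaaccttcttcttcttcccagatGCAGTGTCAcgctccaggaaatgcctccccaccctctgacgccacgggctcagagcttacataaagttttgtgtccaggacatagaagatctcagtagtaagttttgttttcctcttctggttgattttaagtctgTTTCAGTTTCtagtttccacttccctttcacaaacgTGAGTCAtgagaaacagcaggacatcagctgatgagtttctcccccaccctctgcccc
Cxcl10: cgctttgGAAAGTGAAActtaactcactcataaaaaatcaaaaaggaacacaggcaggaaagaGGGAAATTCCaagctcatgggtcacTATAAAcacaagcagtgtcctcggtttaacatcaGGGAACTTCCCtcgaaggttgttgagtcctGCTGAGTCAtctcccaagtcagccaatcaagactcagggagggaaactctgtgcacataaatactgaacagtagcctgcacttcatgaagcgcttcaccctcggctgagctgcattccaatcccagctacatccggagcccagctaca
Cxcl11: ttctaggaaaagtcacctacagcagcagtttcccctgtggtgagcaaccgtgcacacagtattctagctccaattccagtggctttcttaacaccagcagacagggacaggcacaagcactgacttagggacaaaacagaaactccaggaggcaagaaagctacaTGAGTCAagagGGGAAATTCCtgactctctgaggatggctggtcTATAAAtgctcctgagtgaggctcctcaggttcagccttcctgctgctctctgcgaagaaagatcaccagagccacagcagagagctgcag
Il6: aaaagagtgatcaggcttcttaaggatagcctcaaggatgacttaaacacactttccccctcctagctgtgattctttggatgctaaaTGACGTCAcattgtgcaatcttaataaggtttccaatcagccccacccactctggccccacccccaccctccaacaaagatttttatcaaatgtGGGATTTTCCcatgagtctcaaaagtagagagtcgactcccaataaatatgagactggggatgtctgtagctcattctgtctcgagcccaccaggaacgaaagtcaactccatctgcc
Hsph1: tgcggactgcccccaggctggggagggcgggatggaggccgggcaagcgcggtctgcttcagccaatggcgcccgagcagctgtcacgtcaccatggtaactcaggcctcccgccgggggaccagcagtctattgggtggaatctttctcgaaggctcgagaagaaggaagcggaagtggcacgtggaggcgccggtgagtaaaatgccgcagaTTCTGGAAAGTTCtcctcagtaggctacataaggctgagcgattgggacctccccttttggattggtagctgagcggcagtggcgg
Mfsd4a: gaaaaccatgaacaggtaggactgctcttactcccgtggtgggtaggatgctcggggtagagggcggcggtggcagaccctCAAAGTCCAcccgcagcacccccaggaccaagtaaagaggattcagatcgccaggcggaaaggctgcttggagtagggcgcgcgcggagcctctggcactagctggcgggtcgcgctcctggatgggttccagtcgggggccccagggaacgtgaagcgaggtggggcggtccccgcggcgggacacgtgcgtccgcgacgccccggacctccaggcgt

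In Ifit3, an interferon-induced antiviral gene, the ISRE began 44 bases before the start. Cxcl10 held an ISRE 243 bases upstream, matches to the NF-kappaB site beginning 187, 128 and 127 bases upstream, of which the last pair overlap on opposite strands, and an AP-1 site 96 bases upstream that overlaps an antioxidant match. Cxcl11 held AP-1, NF-kappaB and TATA matches 85, 74 and 41 bases upstream. Il6 held a CRE and an NF-kappaB match, Hsph1 a heat-shock element 36 bases upstream, and Mfsd4a an HNF4 match. The AP-1 and CRE motifs match on both strands at the same bases. A match is a description of letters, not evidence that a factor binds there.

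RefSeq promoters were found for 11372 of the 14664 genes tested, 11144 by gene ID and 228 by symbol. An ISRE was present in 17.4% of the 357 promoters of genes that rose over 4-fold and in 25.8% of the 66 that rose over 16-fold, against 2.98% of all tested promoters and 1.93% of the 362 that fell over 4-fold. Of the 339 genes with an ISRE, 37.2% were called higher and 13.9% lower. The NF-kappaB site was in 11.5% of promoters that rose over 4-fold, 22.7% of those that rose over 16-fold, 5.80% of those that fell over 4-fold and 6.66% of all. The shares in the same order were 13.2%, 18.2%, 6.08% and 4.98% for the AP-1 site, and 16.2%, 28.8%, 7.46% and 7.23% for the TATA box. Over all 33469 promoters in the RefSeq table the shares were 3.92% (ISRE), 5.23% (NF-kappaB), 7.33% (AP-1) and 14.2% (TATA).

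Differences between the classes were smaller for the other motifs, or rested on small shares. The antioxidant element was in 14.3% of promoters that rose over 4-fold, 14.9% of those that fell and 14.6% of all. The shares in the same order were 1.12%, 1.38% and 3.05% for the CRE, and 3.08%, 3.04% and 2.08% for TGATGNAA, the C/EBP-ATF element. Among the 66 that rose over 16-fold the antioxidant element was in 16.7%, the CRE in 3.03%, the C/EBP-ATF element in 4.55%, and the 4 motifs that follow in 0. The heat-shock element was in 1.40%, 0.276% and 0.457%, the serum response element in 0.840%, 1.38% and 1.34%, GTTAATNATT (HNF1) in 0.280%, 0% and 0.264%, and the HNF4 site in 0.280%, 0.552% and 0.334%. In the RefSeq table as a whole the shares were 12.1% for the antioxidant element, 1.83% for the CRE, 3.98% for the C/EBP-ATF element, 0.798% for the heat-shock element, 1.64% for the serum response element, 0.335% for HNF1 and 0.391% for HNF4. Base composition moved with the size of the change in both directions: the median number of CpG pairs was 20 in all tested promoters, 11 in those that rose over 4-fold, 9 in those that fell over 4-fold and 5 in those that rose over 16-fold. Its part in the motif shares was not tested.

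**Figure D2:**
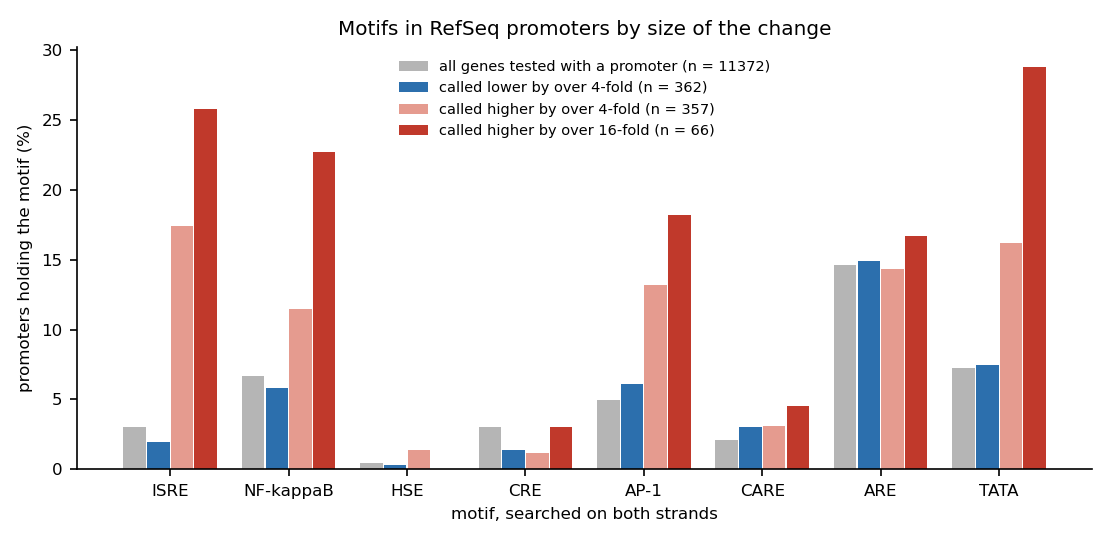
Bars give the percent of RefSeq promoters (300 bases) that hold each motif on either strand, for all tested genes (n = 11372), genes that fell over 4-fold (362) and genes that rose over 4-fold (357) or 16-fold (66). ISRE, NF-kappaB, AP-1 and TATA shares are highest among the strongest rises, and the antioxidant element (ARE) lies between 14.3% and 16.7% in every class.

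Ifit3, the antiviral gene whose promoter is printed above, was at 4.99, 6.48, 23.3 and 11.7 CPM in sham 1 to 4 and at 554.5, 942, 690 and 884 in CPB 1 to 4. The groups were far apart, with sham 3 again the highest sham library, and the log2 change was 6.05 (SE 0.89, adjusted p = 0.00107; 6.64 without sham 3).

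The lowest adjusted p in the table, 0.000968, was shared by 89 genes, 54 higher and 35 lower. Cnp, which encodes a cyclic nucleotide phosphodiesterase known from myelin and as an interferon-induced gene, was at 6.37, 8.49, 9.04 and 6.62 CPM in sham 1 to 4 and at 40.6, 59.5, 80.8 and 70.0 in CPB 1 to 4. Every CPB library was well above every sham library, and the log2 change was 3.04 (SE 0.35). Atp10d, a lipid-flipping ATPase, stood at 12.8 ± 0.442 CPM in sham and reached 54.0 ± 11.1.

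Others in this group were immune regulators, antiviral genes, matrix and signalling genes. Ebi3, a subunit shared by interleukins 27 and 35, rose from 0.755 ± 0.218 to 13.8 ± 5.64 CPM, and Nos2, the inducible nitric oxide synthase, from 0.982 ± 0.615 to 27.4 ± 9.69. Lgals9, which encodes the immune-regulating lectin galectin 9, rose from 9.74 ± 3.81 to 112 ± 36.3 CPM. Of the antiviral genes, Shfl, which blocks viral frameshifting, rose 7.44-fold and Oas1f, a 2-5A synthetase family gene, 20.5-fold. Tnc, the matrix protein tenascin C of healing wounds, rose from 4.17 ± 1.49 to 48.4 ± 21.7 CPM. Efna1, a membrane-bound ligand of Eph receptors, rose 4.13-fold, and Phc2, a Polycomb group gene, 3.59-fold. Mcpt10, a mast cell protease gene, had 0 reads in all sham libraries (floor of 3 reads over the group, 0.031 CPM) and 0.894 ± 0.208 CPM in CPB, at least 28.7-fold higher.

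By amount of RNA, chaperones were among the leading gains. Hspa1b, the inducible Hsp70 that refolds damaged protein, was at 255, 148, 313 and 287 CPM in sham 1 to 4 and at 251, 5777, 16820 and 29459 in CPB 1 to 4. CPB 1 lay within the sham range and the other 3 CPB libraries far above it, so the groups overlap although the test was passed (log2 5.70, SE 1.53, adjusted p = 0.0111; 4.93 without CPB 4). Its near-copy Hspa1a, with which reads may be shared, was at 0.790 CPM in CPB 1 and at 13.9, 46.0 and 80.0 in CPB 2 to 4 (log2 5.59; 4.79 without CPB 4). Hsph1 showed the same order of libraries, at 269 CPM in CPB 1 and 1026, 1910 and 1994 in CPB 2 to 4, against 192 ± 34.8 in sham (log2 2.76, adjusted p = 0.0173).

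CPB 1 was also the lowest CPB library for Hspa5, the chaperone BiP of the endoplasmic reticulum, at 1522, 2700, 3390 and 5651 CPM in CPB 1 to 4 against 736 to 1077 in sham, and Hsp90aa1, the inducible Hsp90, rose by 2.21 on the log2 scale. Over the 477 genes that rose more than 4-fold, CPB 1 was the lowest CPB library in 64.8%, against 30.9% of all genes tested, and CPB 4 the highest in 43.4%, against 28.3%. CPB 1 had the most reads of the CPB libraries (25.8 M) and CPB 4 the fewest (16.8 M). The part of depth in this order was not tested.

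Large gains were also found in genes of other roles. Ctsl, the lysosomal protease cathepsin L, rose from 823 ± 137 to 2684 ± 567 CPM, and Tsc22d1, a stress-responsive transcription regulator, from 486 ± 249.3 to 2590 ± 512. The mitochondrial ribosomal RNA gene AY172581.24 (mitochondrial genome, 1094 to 2664) rose from 852 ± 80.9 to 3095 ± 1200 CPM. Both tested ribosomal RNA genes of that genome rose, and its 13 other tested genes were not called. The part of library preparation in this rise was not tested. Igfbp1, which binds insulin-like growth factors, went from 446 ± 422 to 1920 ± 817 CPM with an adjusted p of 0.0461 from edgeR, and this call was lost in 8 of the 12 fits that left out 1 library: those without CPB 1 (2.28), CPB 2 (2.27), CPB 3 (1.79), CPB 4 (2.09), sham 1 (1.99), sham 2 (1.76), sham 4 (1.96) or CPB+Nitrite 4 (2.13). It was also lost by total counts (1.93). Without sham 3 the log2 change was 2.99, in place of 2.10.

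**Figure D3:**
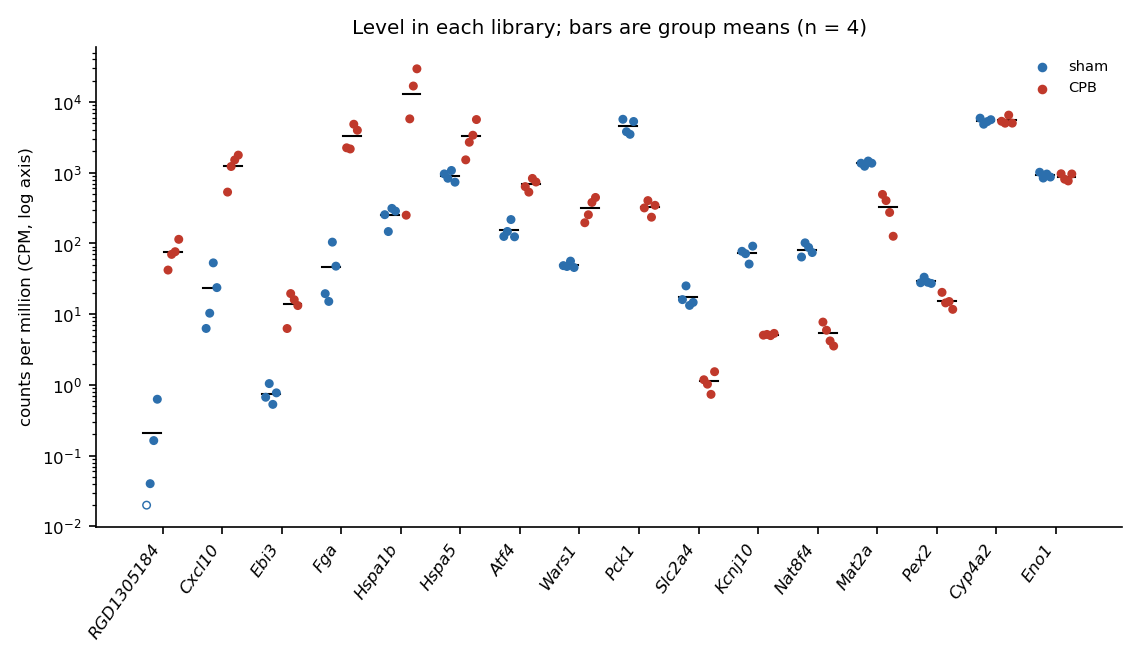
Points give the level of 16 named genes in each of the 4 sham (blue) and 4 CPB (red) libraries in CPM on a log axis, and bars the group means. An open circle is a library with 0 reads, drawn near the foot of the axis. The groups are apart for the genes called except Hspa1b, where CPB 1 lies among the sham libraries, and they overlap for Cyp4a2 and Eno1.

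Among the genes that fell were Pck1, Slc2a4, Casr and Kcnj10. Pck1, the key enzyme of glucose synthesis in the proximal tubule, was at 5699, 3803, 3493 and 5303 CPM in sham 1 to 4 and at 318, 404, 235 and 346 in CPB 1 to 4. The fall was 14-fold, with a log2 change of -3.81 (SE 0.58, adjusted p = 0.00107), and it was the largest loss in CPM of any gene tested. Slc2a4, the insulin-responsive glucose transporter GLUT4, fell from 17.3 ± 5.34 to 1.12 ± 0.335 CPM. Casr, the calcium-sensing receptor of the thick ascending limb, fell from 35.0 ± 14.3 to 2.33 ± 0.792 CPM. Kcnj10, the potassium channel of the distal convoluted tubule, fell from 73.0 ± 16.8 to 5.14 ± 0.164 CPM, with all 4 CPB libraries between 4.99 and 5.36.

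Falls of the highest fold lay in genes of low level. Ccno, a cyclin of multiciliated cells, was at 5.74, 5.31, 4.38 and 4.79 CPM in sham 1 to 4 and at 0.277, 0, 0 and 0.268 in CPB 1 to 4, a log2 change of -5.12 (SE 0.82, adjusted p = 0.00125; -5.87 without CPB 1). Cyp1a1, the dioxin-inducible oxidase, fell from 12.8 ± 7.04 to 0.285 ± 0.242 CPM with a log2 change of -5.35, and its call was lost without CPB 2 (-5.23), CPB 3 (-5.24) or CPB 4 (-5.08), while it was -6.16 without CPB 1. Thrsp, a regulator of fat synthesis, was at 25.5, 18.2, 2.004 and 2.56 CPM in sham 1 to 4 and at or below 1.34 in CPB, and its change was -4.55 (-3.89 without sham 1 and -6.05 without CPB 1). Sham 1 and 2 were high, as they were for fat markers, whose part in this change was not tested.

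Nr0b2, the nuclear receptor SHP that represses bile acid synthesis, fell 15.5-fold, Fbxo40, a ubiquitin ligase subunit known from muscle, 29.0-fold (log2 -4.66; -6 without CPB 1), Gjd2, which encodes connexin 36, 26.9-fold (log2 -4.57; -5.54 without CPB 1), and Tmem236, an uncharacterised membrane protein gene, 18.8-fold. The unnamed long non-coding RNA gene ENSRNOG00000063812 on chromosome 7 fell from 7.84 ± 2.14 to 0.426 ± 0.169 CPM. Smim5, a small membrane protein gene, had 0.857 to 5.15 CPM in sham and 0 reads in every CPB library (floor of 3 reads over the group, 0.0393 CPM), at least 62.3-fold lower. The fitted log2 change, which depends on the prior count, was -8.77, and -8.09 without sham 2, the highest sham library.

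Among falls with the smallest p were genes of sugar use, growth factor signalling and transport. Pfkm, the muscle-type phosphofructokinase, was at 88.1, 94.0, 72.7 and 76.4 CPM in sham 1 to 4 and at 22.0, 16.2, 16.7 and 23.9 in CPB 1 to 4. It fell 4.20-fold (log2 -2.07, SE 0.24). Adra1b, an adrenergic receptor, fell from 8.77 ± 1.47 to 1.06 ± 0.131 CPM, and Slc28a1, a nucleoside carrier of the proximal tubule, 4.65-fold. Fgfr3, a fibroblast growth factor receptor, fell 3.42-fold, Igfals, which carries insulin-like growth factors in blood, 8.09-fold, Mfsd4a 4.53-fold, and Ndrg2, a gene of differentiated epithelium, 6.41-fold.

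By amount, other large losses among the genes called were in abundant genes. Selenop, the plasma selenium carrier, fell from 3099 ± 373 to 1553 ± 305 CPM and Hao2, a peroxisomal hydroxy acid oxidase, from 2671 ± 536 to 1488 ± 220. Mat2a, which makes S-adenosylmethionine outside the liver, was at 1235 to 1464 CPM in sham and at 493, 404, 275 and 126 in CPB 1 to 4 (log2 -2.06, SE 0.49, adjusted p = 0.00617). The CPB library with the lowest level, CPB 4, was the highest for Hspa5. Acy1, an aminoacylase, fell 2.06-fold and Car12, a carbonic anhydrase, 2.62-fold.

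Grouping genes by the letters of their symbol gave 259 families with at least 8 tested members, 4829 genes in all. The 12 families with the highest share of rises, against 21.7% of all genes, were Gbp, Casp, Utp, Cxcl, Cct, Atf, Pdcd, Sp, Arpc, Nop, Rrp and Setd. Guanylate-binding proteins, interferon-induced GTPases that attack vacuoles of pathogens, rose in 7 of 8 genes with a median of 3.67. Gbp7 was at 3.95, 8.57, 12.5 and 8.03 CPM in sham 1 to 4 and at 99.5, 161, 142 and 187 in CPB 1 to 4. Gbp4 rose from 1.66 ± 1.195 to 28.7 ± 8.55 CPM.

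Caspases, the proteases of cell death and of inflammasomes, rose in 8 of 10 genes (median 1.23). Casp4, the sensor of bacterial lipopolysaccharide, rose 9.56-fold, Casp12 6.84-fold and Casp8, the initiator downstream of death receptors, 2.14-fold. The Sp group of symbols rose in 6 of 9 genes. It mixes unrelated genes: those with the smallest p were Sp100, Sp110 and Sp140, nuclear body proteins induced by interferon, which rose 6.07-, 4.61- and 7.26-fold. Atf genes, bZIP transcription factors, rose in 7 of 10. Atf4, the hub of the amino acid and unfolded protein responses, went from 154 ± 44.0 to 685 ± 129 CPM and Atf5 from 49.9 ± 12.1 to 196 ± 42.2.

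Genes of ribosome assembly formed 3 of these families. Utp genes, of the small subunit processome, rose in 8 of 10, Nop genes in 5 of 8 and Rrp genes in 5 of 8. Rrp12, which helps export subunits, was at 18.4, 13.1, 20.98 and 16.2 CPM in sham 1 to 4 and at 77.0, 71.0, 47.5 and 68.2 in CPB 1 to 4. Nop56, of box C/D particles that methylate ribosomal RNA, rose 2.84-fold and Utp23 2.43-fold. Cct genes, subunits of the chaperonin that folds actin and tubulin, rose in 6 of 8 (2 without CPB 4, and 3 with scaling by total counts), Cct4 by 0.80 on the log2 scale. Arpc genes, of the actin-branching complex, rose in 5 of 8 (3 without CPB 3, sham 2 or sham 4, and 3 by total counts), Arpc1b 1.97-fold. Setd genes, which include histone methyltransferases, rose in 5 of 8 with 1 fall (0 without CPB 3).

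Pdcd symbols, an unrelated group named for cell death, rose in 6 of 9. This count was 3 without CPB 1, CPB 4 or sham 2, 2 without CPB 3, sham 1 or sham 4, and 1 by total counts. Families of over 30 tested genes with no fall included Eif and Ube. Eif symbols cover translation initiation factors and also genes named after them, such as Eif4ebp1 and Eif2ak2. They held 27 rises in 52 genes, 51.9% (20 rises and 1 fall by total counts). Ube, ubiquitin-conjugating enzymes, held 16 in 36, 44.4% (10 and 1 by total counts, and 1 fall without CPB+Nitrite 2 or CPB+Nitrite 3). Others were Ddx, Polr and Rpl. Ddx, RNA helicases, held 14 rises in 35 genes (10 and 2 falls by total counts, and 1 fall without CPB+Nitrite 2). Polr, RNA polymerase subunits, held 9 in 31 (6 and 1 by total counts, and 1 fall without CPB+Nitrite 2). Rpl, which holds the proteins of the large ribosomal subunit, held 6 in 56 (16 without CPB+Nitrite 2 and 24 in the 8 sham and CPB libraries alone). Having no fall did not mean having many rises. Against 21.7% of all genes, the share of rises with all libraries was only a little higher in Polr and was lower in Rpl. The median log2 change of Rpl was 0.34, against -0.05 over all genes.

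The 12 families with the highest share of falls, against 21.5% of all genes, were Coq, Slc16, Slco, Nat, Pex, Aldh, Abca, Abcb, Aqp, Klhdc, Slc6 and Abhd. Coq genes make ubiquinone, the electron carrier of mitochondria, and 9 of 11 fell with a median of -0.64. Coq8a was at 64.3, 50.4, 35.1 and 40.9 CPM in sham 1 to 4 and at 15.8, 24.0, 12.9 and 11.9 in CPB 1 to 4. Coq9 fell 2.07-fold. The 2 Coq genes that rose became 1 without CPB 1, CPB 3, CPB 4, sham 1, sham 2 or sham 4 and by total counts.

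Carriers of organic acids were the next group. Slc16 genes, which carry lactate, pyruvate and other monocarboxylates, fell in 9 of 13 with 1 rise (0 without sham 1). Slc16a9 fell from 92.7 ± 19.2 to 13.4 ± 6.36 CPM and Slc16a7, which carries pyruvate, 4.26-fold. Slco genes, carriers of organic anions, fell in 5 of 8 with 1 rise (3 falls without CPB 2), with Slco2a1, the prostaglandin carrier, down 2.64-fold. Slc6 genes, sodium-coupled carriers of amino acids and osmolytes, fell in 6 of 11 (3 without CPB 1 or sham 2, with 2 rises in place of 1 without CPB+Nitrite 2), Slc6a19, the neutral amino acid carrier of the brush border, 2.98-fold. Aquaporins fell in 5 of 9 genes, a count that was 2 without CPB 2 or CPB 3 and 3 without sham 1, sham 2 or sham 3. Aqp1, the water channel of the proximal tubule, changed by -0.66 on the log2 scale, a call lost without CPB 2 (-0.61) or CPB 3 (-0.62).

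Enzyme families fell in similar shares. Aldehyde dehydrogenases fell in 10 of 17 genes with 1 rise, Aldh8a1 2.37-fold and Aldh1l1, of the folate pathway, 2.24-fold. Abhd hydrolases fell in 10 of 19 with 3 rises, Abhd14a 3.97-fold. ABC transporters fell in 5 of 9 Abca genes with 1 rise (3 falls without CPB 2, sham 1 or sham 4) and in 5 of 9 Abcb genes, of which 2 rose (1 without CPB 3), with Abcb8, of the mitochondrial inner membrane, down 1.74-fold. Klhdc symbols fell in 5 of 9 with 2 rises, but the falls were 2 without CPB 2 or CPB 4 and 3 without CPB 1, CPB 3, sham 1 or sham 2, and the rises 1 without CPB 1, CPB 2, CPB 3, CPB 4, sham 2 or sham 3 and 0 without sham 4. Mitochondrial carriers of the Slc25 family, the largest of these groups, fell in 19 of 38 with 5 rises.

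**Figure D4:**
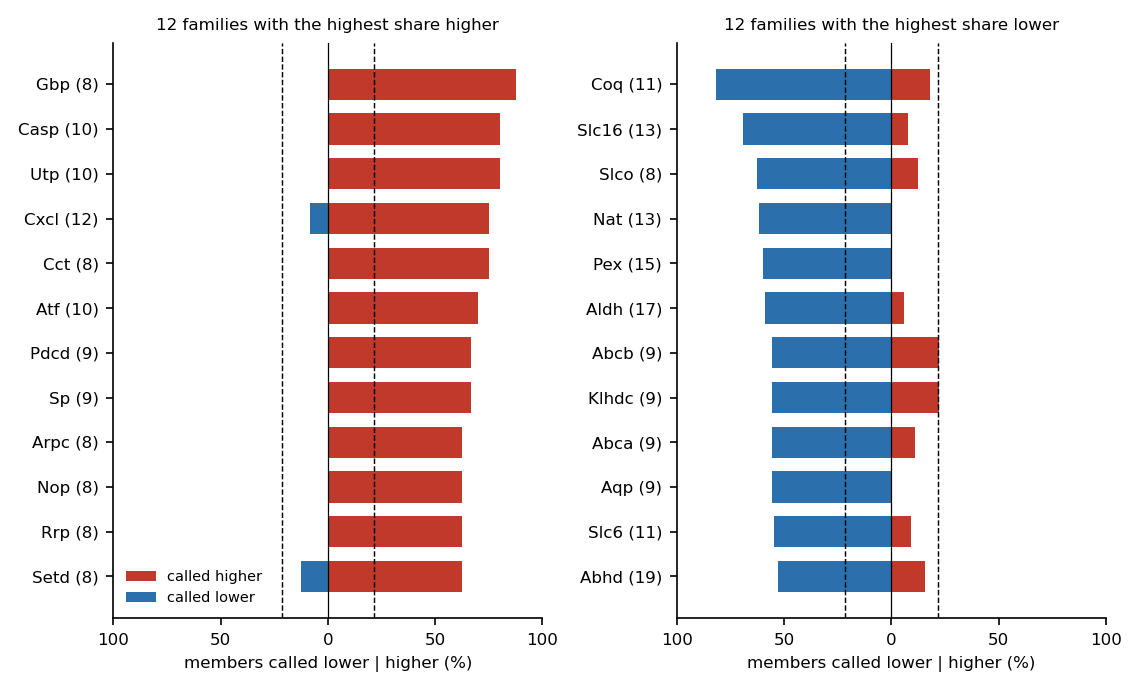
Bars give the percent of tested members called higher (red, to the right) and lower (blue, to the left) in the 12 symbol families with the highest share of each, with the number tested in brackets. Dashed lines mark 21.7% higher and 21.5% lower over all genes. Gbp genes reach 87.5% higher and Coq genes 81.8% lower, and 11 of the 24 families, among them Coq and Abhd, hold genes called in both directions.

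Pathway lists showed which functions moved as groups, set against 21.7% higher, 21.5% lower and a median of -0.05 over all genes. Cytosolic aminoacyl-tRNA synthetases, which charge transfer RNA with amino acids, rose in 16 of 20 with 1 fall and a median of 1.08. Wars1, the tryptophan enzyme that interferon induces, was at 48.6, 47.3, 56.4 and 45.7 CPM in sham 1 to 4 and at 196, 255, 380 and 448 in CPB 1 to 4. Eprs1 rose 2.18-fold and Kars1 2.14-fold.

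RNA handling and chromatin genes rose by smaller amounts. Of 24 genes of mRNA decay and deadenylation 14 rose and 1 fell (median 0.70), with Zfp36l1, which destabilises AU-rich mRNAs, up 3.13-fold and Cnot9 1.96-fold. Of 28 spliceosome and SR protein genes 15 rose and 1 fell (median 0.41). U2af1, which binds the splice acceptor, rose 1.78-fold and Sf3b4 1.75-fold. The 15 became 8 without CPB 4, 9 without sham 2 or sham 4, and 6 by total counts, and the 1 fall was lost without CPB 3, CPB 4 or any 1 sham library. Histone methylation enzymes rose in 18 of 34 with no fall and a median of 0.54 (14 rises, 1 fall and a median of 0.34 by total counts). Kdm1a, the demethylase LSD1, rose 2.58-fold and Kdm3a, which hypoxia induces, 2.08-fold.

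Peroxisome biogenesis genes fell in 11 of 17 with no rise and a median of -0.64 (7 without CPB 4 or sham 3). Pex2, a ubiquitin ligase of the peroxisomal import cycle, was at 27.9, 33.4, 28.3 and 27.3 CPM in sham 1 to 4 and at 20.4, 14.5, 15.1 and 11.7 in CPB 1 to 4. Every sham library was above every CPB library, and the fall was 1.89-fold. Pex10, its partner, fell 2.10-fold. The Pex symbol family overlaps this list and is the same observation, with 9 of 15 lower (5 without CPB 4 or sham 3).

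Ammonia production and export, by which the tubule excretes acid, fell in 8 of 14 genes with no rise (median -0.86). Besides Pck1 these included Slc9a3, the apical sodium-proton exchanger, which fell 3.82-fold, Slc25a11, the mitochondrial oxoglutarate carrier, 2.23-fold, and Rhcg, the ammonia channel of the collecting duct, 2.30-fold. The summed level of the list was 7191 to 8824 CPM in sham and 2317 to 2578 in CPB, and Pck1 made up more than any other member of it in sham.

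Transcription factors of kidney epithelium fell in 13 and rose in 6 of 44 (median -0.22). Esrra, which drives genes of oxidative metabolism, fell from 130 ± 15.9 to 68.5 ± 5.47 CPM, Nr3c2, the aldosterone receptor, from 27.2 ± 6.71 to 8.55 ± 1.82, and Mecom 2.40-fold. Grhl2, a factor of distal epithelium and barrier genes, rose from 14.7 ± 1.27 to 29.5 ± 4.47 CPM. Integrins, which bind cells to matrix, rose in 7 of 17 and fell in 3 (1 without sham 1), with Itga3 up 4.22-fold, Itga6 2.73-fold and Itgb1 1.86-fold (median 0.58).

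Of 32 Wnt pathway genes 9 fell (5 without CPB 3) and 2 rose (median -0.26). Sfrp2, a secreted Wnt modulator, fell from 22.3 ± 11.01 to 2.70 ± 0.494 CPM and the ligand Wnt5b 4.78-fold, while the receptor gene Fzd8 rose 3.69-fold and Axin1, a scaffold for beta-catenin destruction, went from 75.5 ± 0.990 to 147 ± 4.55. Of 17 Notch pathway genes 3 rose and 4 fell (median 0.29), the receptor Notch1 rising 2.35-fold and Notch3, a receptor of mural cells, falling 2.59-fold. The 3 rises became 1 without CPB 2, CPB 4, sham 1 or sham 2 and 6 without CPB+Nitrite 2, and the 4 falls 2 without CPB 3, CPB 4, sham 1, sham 2 or sham 4. Of 11 Hedgehog genes 1 rose and 4 fell (median -0.10). The falls included the transducer Smo (2.96-fold) and Sufu (1.58-fold), a negative regulator of the pathway. Its falls were 2 without CPB 2, CPB 3 or sham 1, and its rise was lost without CPB 3, CPB 4 or sham 2 and became 2 without CPB 1 or CPB+Nitrite 2.

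Metabolic lists without a common direction were cholesterol synthesis, polyamines, nucleotides, autophagy and the insulin axis. Of 21 genes of purine and pyrimidine synthesis 4 rose and 3 fell (5 fell without CPB+Nitrite 3, median 0.16 and -0.03 by total counts), with the mitochondrial folate enzyme Mthfd2 up from 5.13 ± 1.80 to 53.0 ± 20.7 CPM and Ctps1, which makes CTP, up 3.97-fold, while Shmt1 and Prps2 fell 2.03- and 1.95-fold. Of 12 polyamine genes 3 rose and 1 fell (median 0.20; the fall was lost without any 1 CPB library, sham 1, sham 2 or sham 4), with Sat1, which acetylates spermidine, up from 383 ± 235 to 1187 ± 115 CPM and Azin2 2.91-fold. Of 26 autophagy genes 6 rose and 2 fell (1 without CPB 2, CPB 3, CPB 4 or any 1 sham library), the median being 0.17 and, by total counts, -0.02. The cargo receptor Sqstm1 rose 2.70-fold and Gabarapl1 2.18-fold.

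Of 21 genes of the insulin and IGF axis 6 rose and 3 fell (median 0.05 and -0.14 by total counts). Pik3r1, the regulatory subunit of PI3-kinase, rose 5.35-fold and Igf1 fell 3.03-fold. The 6 rises were 3 without CPB 3, CPB 4 or sham 4 and 2 without sham 1 or sham 2, and the 3 falls 5 without CPB+Nitrite 2. Of 23 cholesterol genes 3 rose and 2 fell, with a median of -0.01 that was above 0 with median-of-ratios (RLE) factors or the authors' own scaling. Dhcr7 fell 2.12-fold. The 3 rises were 0 without sham 1 or sham 2, and the 2 falls 1 without CPB 2, CPB 3, CPB 4, CPB+Nitrite 3, sham 1, sham 3 or sham 4 and 5 without CPB+Nitrite 2.

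Marker lists of cell types fell in most segments of the tubule, though never in all members. Distal convoluted tubule markers fell in 5 of 7 (median -1.34): besides Kcnj10, Klhl3, an adaptor that targets WNK kinases for destruction, fell 7.64-fold and Wnk1, such a kinase, 2.70-fold. Proximal tubule markers fell in 7 of 15 (4 without CPB 3, median -0.66), with the organic anion transporter Slc22a6 down 2.09-fold. Principal cell markers of the collecting duct fell in 3 of 9 (median -0.89), with Avpr2, the vasopressin receptor, down 5.98-fold and Hsd11b2, which protects the aldosterone receptor from glucocorticoid, 2.59-fold. Intercalated cell markers fell in 4 of 8 (median -0.54), with Atp6v1b1, a proton pump subunit, down 3.48-fold.

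Of 8 thick ascending limb markers 1 rose and 1 fell (median -0.39), the rise being lost without CPB 2, CPB 4, sham 1 or sham 4 and joined by another without CPB 3 or sham 3, and the falls being 2 without CPB+Nitrite 2. Of 9 podocyte markers 1 fell (median -0.08; 0 without CPB 3, sham 1 or sham 4 and 2 without CPB+Nitrite 2 or sham 3). Of 14 endothelial markers 3 rose, 3 fell and 8 were not called (median -0.55). Cdh5, the cadherin of endothelial junctions, was 1 of the 3 that rose, up 2.53-fold, against the direction of the median. The 3 falls were 0 or 1 without any 1 CPB library, sham 1, sham 2 or sham 4, and 7 without CPB+Nitrite 2.

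Macrophage markers fell in 4 and rose in 2 of 11 (median -0.56). The rises were 1 without CPB 2, CPB 3, sham 1, sham 2 or sham 3. The 5 not called were Cd68, Adgre1, C1qa, C1qb and C1qc. Csf1r, the growth factor receptor of macrophages, was at 12.2, 18.99, 9.81 and 27.5 CPM in sham 1 to 4 and at 4.03, 3.13, 1.64 and 2.28 in CPB 1 to 4, a 6.18-fold fall. The chemokine receptor Cx3cr1 fell 7.73-fold, and Cd14, a lipopolysaccharide co-receptor, rose 3.93-fold. Neutrophil markers rose in 5 of 10 and fell in 1 (median 1.06), with S100a9, a calprotectin subunit, rising from 2.36 ± 0.818 to 8.17 ± 2.16 CPM. The 1 fall was lost without any 1 CPB library, sham 1 or sham 2 and became 2 without CPB+Nitrite 3. Of 6 tested lymphocyte and natural killer cell markers 3 rose (median 1.2), with Gzmb, the protease of cytotoxic granules, up from 0.318 ± 0.0992 to 5.39 ± 2.06 CPM. The summed level of all lymphocyte markers was 2.50 to 4.71 CPM in sham and 8.30 to 15.1 in CPB, of which Gzmb alone held 3.36 to 7.88. Prf1 and Cd8a also rose, and Cd3e, Cd79a and Nkg7 were not called.

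Smooth muscle, fat and urothelial markers were high in sham 1. Smooth muscle markers fell in 7 of 10 (median -1.48), 3 without sham 1 and 4 without CPB 1, CPB 2 or CPB 3. Acta2, smooth muscle actin, was at 118, 20.4, 14.8 and 21.1 CPM in sham 1 to 4 and at 8.10, 5.88, 3.06 and 11.5 in CPB 1 to 4. All CPB libraries were below all sham libraries, but the log2 change of -2.61 became -1.39 without sham 1, and that of Tagln -0.93 in place of -1.58. Fat markers fell in 4 of 10 (2 without CPB 2, CPB 3, CPB 4 or sham 1, and 7 without sham 3), and Cfd, the adipocyte protease adipsin, was at 58.99 CPM in sham 1 and 14.1 in sham 2 against at most 1.54 elsewhere, a call lost without CPB 2, CPB 3, CPB 4 or sham 1 (-4.75, -4.83, -4.71 and -3.16, against -5.03 with all libraries and -6.68 without CPB 1). The Ucp1 gene of brown fat was at 0 in all 8 libraries.

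Urothelial markers fell in 2 of 7, a count that was 0 without sham 1, sham 2, CPB 2, CPB 3 or CPB 4, 1 without CPB 1, 4 without CPB+Nitrite 1 and 5 without sham 4. Upk3a, a uroplakin, was at 31.2 CPM in sham 1 and at or below 5.23 elsewhere. Its call (log2 -4.65) was lost without sham 1 (-2.44), sham 2 (-4.85) or any 1 CPB library (-5.67, -4.26, -4.55 and -4.55 without CPB 1 to 4). Of 8 fibroblast markers 1 fell (0 without CPB 1, CPB 2, CPB 3, sham 1 or sham 2, 2 without CPB+Nitrite 2 and 3 without sham 3). Of 4 erythroid markers 0 were called (1 rose without CPB+Nitrite 2), with a median of 1.07. Their summed level was 738 to 1727 CPM in sham and 1093 to 4046 in CPB, highest in CPB 4. Only 2 of 11 adrenal markers were tested, of which Hsd3b1, a steroid dehydrogenase, rose 8.04-fold. The 1 tested skeletal muscle marker of 9 was called higher, a call lost without any 1 sham library, CPB 2, CPB 3, CPB 4 or CPB+Nitrite 4.

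Some genes that changed together were neighbours. Runs of at least 5 neighbouring tested genes called in 1 direction numbered 15 higher and 12 lower. The longest lay on chromosome 20, 3257123 to 3559486, where 12 genes of the rat major histocompatibility complex (RT1, class I antigen presentation) all rose, by 1.52 to 3.26 on the log2 scale. RT1-A1 was at 88.2, 82.5, 99.3 and 75.7 CPM in sham 1 to 4 and at 282, 381, 485 and 513 in CPB 1 to 4. RT1-CE16 (ENSRNOG00000065254) rose from 544 ± 53.6 to 2056 ± 405 CPM, RT1-CE15 (ENSRNOG00000048951) 7.36-fold and RT1-CE14 9.48-fold. These genes are close copies, so reads may be divided among them unevenly. Of the autosomes, chromosome 20 had the highest share of rises, 27.3%.

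On chromosome 10, 67834062 to 68018138, 8 neighbours rose by 0.68 to 3.40, among them the Schlafen genes of antiviral and lymphocyte growth control. Slfn4 (ENSRNOG00000057092) rose from 47.1 ± 37.2 to 498 ± 170 CPM (log2 3.40; 4.09 without sham 3), Slfn2 7.21-fold and Slfn13 7.66-fold. Nle1 at the edge of the run rose by 0.68, a call lost without CPB 1 (0.60), CPB 2 (0.64), CPB 4 (0.73), sham 1 (0.71), sham 2 (0.64) or sham 4 (0.63) and by total counts.

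Runs of falls included an enzyme cluster. On chromosome 4, 118125607 to 118363563, 9 neighbours fell by 1.12 to 4.33: Alms1, Tprkb and 7 genes of the Nat8 family, acetyltransferases of the kidney of which Nat8 completes mercapturic acids. Nat8f4 was at 64.4, 102, 87.9 and 74.5 CPM in sham 1 to 4 and at 7.74, 5.94, 4.19 and 3.55 in CPB 1 to 4, a 15.3-fold fall. Nat8f2 had the largest fall of the run, from 3.49 ± 0.838 to 0.165 ± 0.0493 CPM. Nat8f1, Nat8f3 and Nat8 fell 3.04-, 3.597- and 2.64-fold, and Alms1 and Tprkb, which are not of the family, 2.18- and 2.189-fold. The Nat symbol family, 8 of 13 lower, is mostly this cluster.

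Also on chromosome 4, 122914698 to 123667405, 7 neighbours with no common name fell, among them Klf15, a glucocorticoid-responsive factor of podocytes and muscle (2.56-fold), Aldh1l1, and Hdac11, a histone deacetylase (2.82-fold). On the X chromosome, 67385289 to 68636429, 9 neighbours fell by 0.54 to 2.87. They included Hdac8 and Phka1, a phosphorylase kinase subunit, which fell 1.84- and 1.99-fold. The call of Tsx (-0.54, adjusted p from edgeR 0.0471) was lost with RLE factors, with the authors' scaling, without the filter and in 9 of the 12 fits that left out a library (all but sham 1, CPB+Nitrite 2 and CPB+Nitrite 4), with values of -0.49 (sham 2) to -0.58 (CPB 1). That of Dmrtc1c1 (-2.87; -3.47 without CPB 3) was lost without CPB 1 (-2.90), CPB 2 (-2.75), CPB 4 (-2.50), sham 1 (-2.63) or sham 2 (-2.67), and its CPB libraries ran from 0.469 to 10.03 CPM.

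The X chromosome had the lowest share of rises of any chromosome with at least 100 tested genes. Of its 461 tested genes 10.6% rose and 23.2% fell, while single autosomes had between 19.6% and 27.3% rises. X-linked genes were of lower level, with a median of 12.9 CPM for 437 protein-coding genes against 22.1 for 13536 autosomal ones. Compared within levels, between 10 and 100 CPM 14.1% of X-linked and 27.3% of autosomal protein-coding genes rose, and above 100 CPM 21.4% and 33.6%. The shares that fell were 16.7% and 19.9% at the first level and 19% and 17.5% at the second. No test of this difference was run.

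Level and gene length also went with the direction of change. Rises were 6.72% and falls 19.3% of genes under 1 CPM, 10.9% and 28.0% between 1 and 10 CPM, 26.9% and 19.7% between 10 and 100, and 33.3% and 17.6% between 100 and 1000. Of 720 protein-coding genes that span 200 kb or more, 12.8% rose and 30.1% fell (median -0.37), and of 419 genes under 2 kb 16.2% rose and 8.83% fell. The longest genes were also of low level, with a median of 10.1 CPM against 26.1 for genes of 20 to 50 kb, and the part of level in these shares was not tested.

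**Figure D5:**
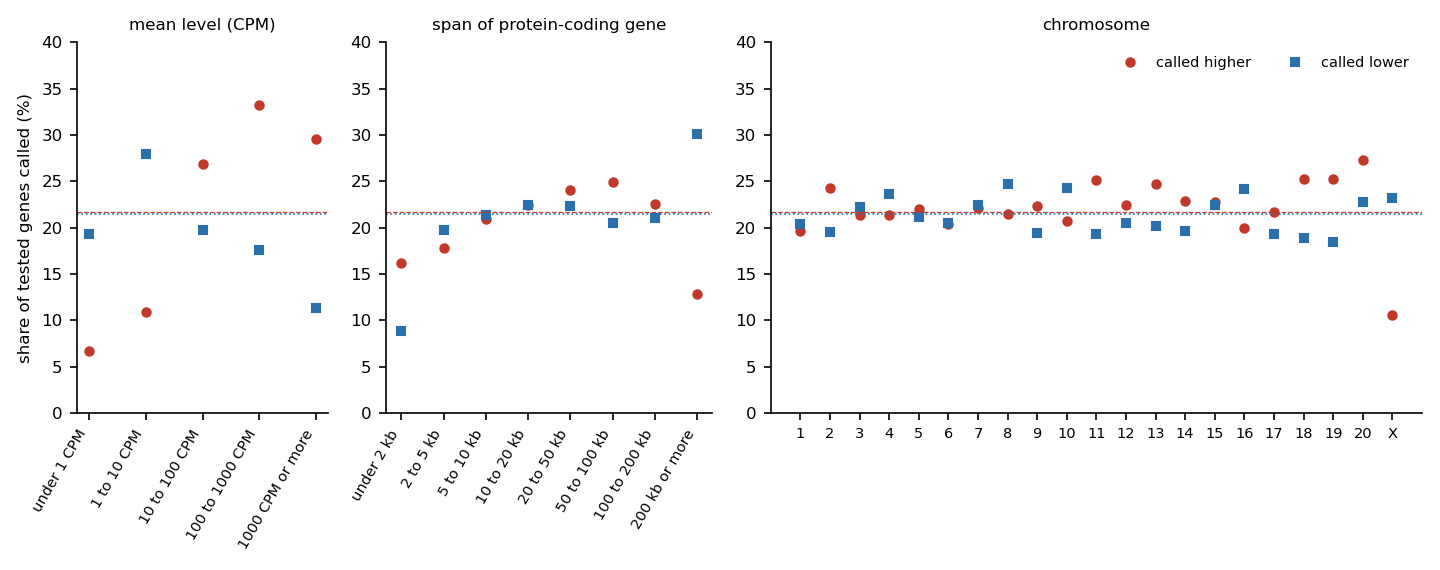
Points give the percent of tested genes called higher (red circles) and lower (blue squares) by mean level over the 8 libraries, by span of protein-coding genes and by chromosome, with lines at 21.7% and 21.5% for all genes. Falls exceed rises below 10 CPM, in genes of 200 kb or more and on the X chromosome (10.6% higher, 23.2% lower).

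Of 567 genes labelled as long non-coding RNA 34.7% changed, and of 13998 protein-coding genes 43.6%. This difference was not tested. Of the 567, RefSeq lists 46 as protein-coding, and 14 of these rose and 4 fell. Ccl22, a chemokine that draws regulatory T cells and carries the non-coding label here, rose from 0.0971 ± 0.0657 to 3.74 ± 2.44 CPM. Of the other 521, 13.8% rose and 20.5% fell (median -0.26). LOC102549328 fell from 9.94 ± 0.843 to 1.75 ± 0.566 CPM, AABR07071383.1 fell 5.42-fold and LOC120100725 rose 6.38-fold.

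For other genes the data bound the size of any change. In 1386 genes (9.45%) the 95% interval of the log2 change lay within 0.5 of 0, and in 6222 (42.4%) within 1. Protein-coding transcripts of the mitochondrial genome were among these. Mt-cyb measured 15252 ± 642 CPM in sham and 15615 ± 536 in CPB (interval -0.31 to 0.37), and Mt-co2 at 11286 ± 838 and 11376 ± 824, respectively (-0.36 to 0.38). Mt-co1, the most abundant transcript of the table, had a wider interval, with 44276 ± 3402 CPM and 49693 ± 5001 (-0.43 to 0.76), and Mt-co3 measured 15986 ± 1012 and 17703 ± 904. Reads of mitochondrial genes made up 13.9 to 14.7% of sham libraries and 12.2 to 14.7% of CPB libraries. Cyp4a2, a fatty acid hydroxylase of the proximal tubule, was at 5418 ± 455 and 5478 ± 715 CPM (-0.41 to 0.44), the glycolytic enzyme Eno1 at 922 ± 80.6 and 876 ± 103 (-0.37 to 0.23), Bsg, the chaperone of lactate carriers, at 1050.2 ± 114 and 999.6 ± 68.99, and Tmbim6, an inhibitor of cell death, at 1296 ± 86.8 and 1240 ± 63.3. For Gpx3, the plasma glutathione peroxidase made by the tubule, the interval was wider, -0.55 to 0.37. Of the 8332 genes not called, 3237 had intervals reaching beyond 1, for which a 2-fold change cannot be told from none at this replication.

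Some genes varied widely within a group. Krt20, a keratin of injured tubule and urothelium, was at 21.9, 7.23, 0.227 and 0.335 CPM in CPB 1 to 4 and at or below 1.19 in sham, and its call (log2 4.16) was lost without CPB 1 (2.66), CPB 2 (4.18), sham 2 (4.11), sham 3 (3.8) or sham 4 (3.78) and reached 5.68 without sham 1. Fosb, an immediate early gene, was at 26.1 CPM in CPB 2 and at 1.47 to 2.69 in the other CPB libraries, and its call (3.57) was lost without CPB 2 (1.67) and without sham 1 (3.51), sham 2 (3.44), sham 3 (3.95) or sham 4 (3.45). Rnf183, a ubiquitin ligase of the collecting duct, was at 60.8, 32.6, 13.5 and 3.08 CPM in CPB 1 to 4 against 22.9 to 29.9 in sham, so that the group means of 27.5 and 26.4 were close (adjusted p from edgeR 0.945; log2 0.06, and -0.67 without CPB 1) although single CPB libraries lay above and below all sham libraries. In sham, Car3, a carbonic anhydrase of muscle and fat, was at 175, 61.6, 0.409 and 0 CPM in sham 1 to 4 (log2 -5.26, not called, -3.76 without sham 1 and -8.08 without CPB 1), and Actg2, enteric smooth muscle actin, at 57.7 CPM in sham 1 and at most 3.78 elsewhere, with a call (-4.18) that was -0.94 and lost without sham 1 and lost without CPB 1 (-4.09), CPB 2 (-4.15) or CPB 3 (-3.96).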

How the data were processed

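Kidney RNA of 12 rat libraries in 3 groups of 4 was sequenced. Per the labels' protocols, QIAzol was used for extraction, a TURBO DNA-free kit for removal of genomic DNA and the NEBNext Ultra II Directional kit for the libraries. The submitters' processing notes name bcl2fastq 2.19, cutadapt 1.18, Salmon 1.2.1, R 3.5.1 and build mRatBN7.2, without their roles. The authors deposited estimated counts per Ensembl gene, and 33.1% of the values above 0 were not whole (tolerance 0.000001). A second deposited table holds a scaled signal, which equals the counts times 1 factor per library by the authors (largest relative departure 0.0033, over counts of at least 100), and gave the gene names and biotypes. The estimated counts were rounded here, since the test needs whole numbers. Near-identical genes may share reads that Salmon divides by model.

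The 12 libraries, of 16.8 to 25.8 M reads (M, mega), were fitted together with edgeR 4.0.16 (R 4.3.3): TMM factors of 0.887 to 1.11, filterByExpr with a minimum count of 10, and the quasi-likelihood test of CPB against sham, two-sided, with Benjamini-Hochberg adjustment over 14664 genes. SE is the absolute log2 change divided by the square root of F. Levels are CPM after TMM scaling, given as mean ± SD. The groups differ only in their treatment label, and no batch is given.

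Named genes met rules on size of change, p, gain or loss of CPM, 0 reads in a group, lists, symbol families, neighbour runs, abundance with a narrow interval, or spread. The rules allow 325 genes, of which 180 are named; some others are not reported here. LOC100910979 and Hsph1 were added after their values were seen. The rules, lists and members were chosen with earlier results of these data known, so they are no independent support. Alternatives used RLE factors, total counts, the authors' scaling, other filters, the 8 libraries alone, a replicate block, DESeq2 1.42.0, limma 3.58.1 voom, glmTreat against a 1.5-fold change, and each library left out in turn. Promoters came from RefSeq, build GRCr8.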

Additional observations from a re-analysis of the deposited data

Results flagged for a closer look

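In each group of 4 libraries, a value was listed here when its gap to the nearest other library exceeded Dixon's 95% limit for the range of the group. All 182 named genes were examined in both groups. Chance gives such a gap in about 1 group in 20, and 18 were found. That is about as many as chance gives over 182 genes in both groups, so any single gap may be chance.

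Sham 1 was far above the other sham libraries for Acta2, smooth muscle actin, at 117.9 CPM against 14.8 to 21.1, and below them for Tsx at 6.89 against 9.69 to 9.98 and for Ccl22 at 0 against 0.121 to 0.145. Sham 3 was far above for Sat1, the spermidine acetylase, at 735.4 CPM against 250.4 to 284, and for Selenop at 3654.7 against 2850.7 to 2952.7. Sham 2 was low for Klf15 at 111.7 CPM against 128.2 to 130.3. Sham 4 was low for the antiviral gene Shfl at 10.3 CPM against 12.8 to 13.3 and for the splicing factor U2af1 at 35.24 against 40.6 to 41.3. It held the reads of ENSRNOG00000067738 in sham, 0.145 CPM against 0 in the others.

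In the CPB group, CPB 1 was low for the interferon-induced genes Sp100, at 54.87 CPM against 87.9 to 96.0, and Slfn2, at 194.7 against 246.5 to 251, and for Grhl2, at 22.91 against 30.8 to 32.4. CPB 2 was low for Gabarapl1 at 887.9 CPM against 1051.2 to 1082.3. CPB 4 was low for the ligand gene Efna1 at 68.45 CPM against 86.0 to 88.6, for the peroxisomal gene Pex10 at 7.569 against 9.39 to 9.80 and for the transcription factor gene Pou3f1 at 0.3349 against 7.86 to 8.44. It was high for Notch3 at 6.162 CPM against 3.85 to 3.99. CPB 4 was also far below the others for LOC120102105, an 18S ribosomal RNA gene, at 131.4 CPM against 1883.6 to 2402.8.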

How the results depend on the processing

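The number of genes called was 4692 (without sham 2) to 7574 (without CPB+Nitrite 2) when 1 library was left out, against 6332. The same fits gave 2369 to 3697 genes higher, 2242 to 3877 lower, 2715 to 3481 called and changed over 2-fold, and 48.8 to 53.9% of calls higher. No gene called with all libraries changed sign in any of the settings run, and 73.5% (without sham 2) to 100% (without CPB+Nitrite 2) of the calls were kept with 1 library left out. By total counts 34.8% of calls were higher, in place of 50.3%. The TMM factors that this setting leaves out were 1.01 to 1.11 in sham and 0.887 to 0.982 in CPB. Why the factors differ between the groups was not tested. Testing for a change beyond 1.5-fold, a stricter question by construction, left 2112 genes, 1109 higher and 1003 lower, of which 2071 changed over 2-fold. The other settings gave between 5809 (mean of at least 2 CPM) and 8997 (limma voom with sample weights) genes. Among these, the 8 sham and CPB libraries alone gave 7873 calls in 14153 genes tested. They kept 6160 of the 6332 calls, of which 6179 were tested there.

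With the replicate number as a block (replicate block), 6229 genes were called, 3100 higher and 3129 lower. The calls of Tsx (-0.53), Fosb (2.78) and Actg2 (-2.22) were lost, Car3 was called (-5.06), and Hspa1b changed by 4.39 in place of 5.70. Whether the numbers pair the libraries was not tested. Same-numbered sham and CPB libraries correlated at 0.223, -0.0968, 0.139 and 0.0671 in their deviations from the group means. CPB 1, CPB 3 and CPB 4 correlated best with the sham library of their own number, and CPB 2 with sham 4 (0.27). Of the 182 named genes 169 were called. Leaving out a library ended 11 of these calls and moved 27 by over 1.5 times, each given with its gene. With 4 libraries a group and a median SE of 0.24 on the log2 scale, 3237 of the 8332 genes not called had 95% intervals beyond a 2-fold change.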
